A study of Mus musculus with 6 samples.

Results

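The VPS10-domain receptors, or sortilin family, are encoded by 5 mouse genes, Sorcs1, Sorcs2, Sorcs3, Sort1 and Sorl1, and all 5 were present among the 55487 genes counted in RNA of mouse oocytes matured in culture with or without metformin. The family was chosen by the readout of this same comparison, because Sorcs2 was 1 of 5 genes called between the groups; the other members were taken by homology. Differences between the groups are therefore given for the members as descriptions and not as tests. There were 3 control libraries and 3 metformin libraries. Both groups came from females primed with 10 IU of pregnant mare serum gonadotropin. Fully grown germinal-vesicle oocytes were taken 46 to 48 h later, freed of cumulus cells and kept in M16 medium under oil for 16 h, by which time they had reached metaphase II. Metformin, a biguanide used against type 2 diabetes, was added for 1 group and left out for the other. The protocol lists 10, 20 and 50 μM, and the dose given to the sequenced oocytes is not stated. The series title speaks of aged mice, whereas age, strain and the number of oocytes or animals behind a library are not given in the labels.

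Members of this family are membrane proteins that bind cargo through a large amino-terminal VPS10 domain and carry it between the Golgi, endosomes, lysosomes and the cell surface. Sortilin, from Sort1, and SorLA, from Sorl1, move lysosomal and secreted proteins, progranulin and the amyloid precursor protein among them. The SorCS proteins are best known in neurons, where SorCS2 acts with the p75 neurotrophin receptor as a receptor for proneurotrophins. Cytoplasmic tails of the family are read by the retromer complex and by clathrin adaptors.

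The members are related at the protein level but distinct in exact stretches of 50 bases of annotated transcripts. Inexact matches and the placement of the reads themselves were not examined. Over aligned residues of the translated main transcripts, SorCS2 was identical to SorCS1 at 46.3% and to SorCS3 at 44.3%, to sortilin at 28.4% and to SorLA at 29.1%. SorCS1 and SorCS3 were closer to each other, at 64.7%. The longest run of coding bases that Sorcs2 shared exactly with another member was 17 bases, with Sorcs3. Of the 8750 different stretches of 50 bases in annotated Sorcs2 transcripts, 0 occurred in a transcript of any other gene on either strand. The same count was 0 of 7126 for Sorcs3. For Sorcs1, Sort1 and Sorl1 it was 1.41%, 3.81% and 0.799%, each time owing to a single antisense gene at the same locus (Gm45352, Gm12523 and Gm16214), to which at most 1 read was assigned in all 6 libraries together.

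A stretch of 60 coding bases from a conserved exon shows this relation. It holds the longest run shared by Sorcs1 and Sorcs3, 32 bases, and is given 5′ to 3′ on the coding strand with capitals marking bases equal to that of Sorcs2 at the same position. In GRCm38 it lies in exon 9 of Sorcs2 (chr5:36056024-36056083, minus strand), Sorcs1 (chr19:50252588-50252647, minus strand) and Sorcs3 (chr19:48693887-48693946, plus strand), in exon 10 of Sort1 (chr3:108338816-108338875, plus strand) and in exon 8 of Sorl1 (chr9:42071122-42071181, minus strand).
Sorcs2: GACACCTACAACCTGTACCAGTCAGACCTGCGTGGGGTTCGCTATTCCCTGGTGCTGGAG
Sorcs1: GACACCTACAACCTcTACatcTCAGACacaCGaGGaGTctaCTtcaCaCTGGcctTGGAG
Sorcs3: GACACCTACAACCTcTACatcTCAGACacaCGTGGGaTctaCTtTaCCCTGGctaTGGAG
Sort1: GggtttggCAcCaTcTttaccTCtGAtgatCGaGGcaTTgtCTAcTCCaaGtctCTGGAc
Sorl1: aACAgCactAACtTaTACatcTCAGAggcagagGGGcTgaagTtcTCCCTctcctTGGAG
Of the 60 bases, Sorcs1 shared 41 with Sorcs2, Sorcs3 shared 44, Sorl1 shared 31 and Sort1 shared 28. Sorcs3 was thus nearer to Sorcs2 here than Sorcs1 was, the reverse of the identities over whole proteins. The longest exact match with Sorcs2 at this site was the first 14 bases, in Sorcs1 and Sorcs3.

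The libraries had the profile of oocytes. They held between 8622281 and 10588292 counted reads, and a floor of 3 reads corresponded to 0.285 to 0.339 CPM, the usual abbreviation for a gene's reads scaled to library size, here with TMM factors. All 12 oocyte markers were measured, with a summed level of 32255 to 34753 CPM in the control group and 27523 to 39222 CPM in the metformin group. Gdf9 stood at 7194 ± 181 and 7260 ± 981 CPM, Mos at 1502 ± 96.2 and 1430 ± 188 CPM and Zp3 at 768 ± 112 and 723 ± 180 CPM (SD, n = 3). The oocyte markers were uneven, from Btg4 at 10244 ± 1007 and 10871 ± 3319 CPM down to Figla at 2.08 ± 0.866 and 1.76 ± 0.823 CPM. The 12 cumulus and granulosa markers summed to 1382 to 1550 CPM in the control group and 1178 to 1668 CPM in the metformin group, mostly from Serpine2 at 1387 ± 88.8 and 1377 ± 244 CPM. Of the same list Cyp19a1 stood at 38.5 ± 2.26 and 41.8 ± 5.65 CPM and Nr5a2 at 18.6 ± 2.36 and 16.4 ± 0.337 CPM, 6 genes including Fshr had at most 18 reads per group, and Amh, Foxl2 and Ptx3 had 0. The 9 theca, stroma and endothelium markers summed to 34.5 to 40.3 and 30.8 to 42.4 CPM, mostly from Pecam1. Control replicate 1 held 25 of the 26 control reads of Col1a1 and 20 of the 25 of Col1a2. In the metformin group these genes had 0 and 2 reads. The 9 blood and immune markers summed to 33.9 CPM in control replicate 1 and to 1.38 to 3.10 CPM in the other 5 libraries. In bulk RNA of this kind, fewer expressing cells and less RNA per cell cannot be told apart.

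Sorcs2 (ENSMUSG00000029093, GRCm38 chromosome 5, 36017180 to 36398139, minus strand) was the member that differed. It had 34, 51 and 53 reads in control replicates 1 to 3 and 164, 188 and 239 reads in metformin replicates 1 to 3. On the CPM scale these were levels of 3.57, 5.77 and 5.48 in control and 15.6, 18.5 and 24.5 in metformin libraries. Every metformin library lay above every control library, and the lowest metformin level was well above the highest control level. The mean level was 4.94 ± 1.19 CPM (SD, n = 3) without and 19.5 ± 4.52 CPM with metformin.

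The fitted difference of Sorcs2 was a log2 fold change of 1.98 (SE 0.255, edgeR), or 3.94-fold with a 95% interval of 2.68 to 5.81. Pooled over libraries, 591 reads against 138 gave a ratio of 3.94 with an exact 95% interval of 3.27 to 4.78 that covers counting error only. The adjusted p by which Sorcs2 entered the called genes was 0.0164 (edgeR's quasi-likelihood test), the highest of the 5, and that of the next gene in line was 0.287. In all, 0.0391% of 12793 tested genes were called, and 5.63% had groups whose CPM ranges did not overlap. Among the 4 members that passed the filter on low counts, 1 was called and 1 had groups without overlap, in both cases Sorcs2, which the choice of the family fixes. By edgeR the call was lost without control replicate 1 (log2 fold change 1.79, adjusted p = 0.0693), 2 (2.10, 0.0600) or 3 (2.06, 0.0832), and it was also lost by limma-voom (1.98, 0.0846) and in edgeR's non-robust fit (1.98, 0.0549). Control replicate 1, the library with most reads of the blood markers, Col1a1 and Col1a2, also had the lowest Sorcs2 level. The part of these markers in the result was not tested.

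**Figure D1:**
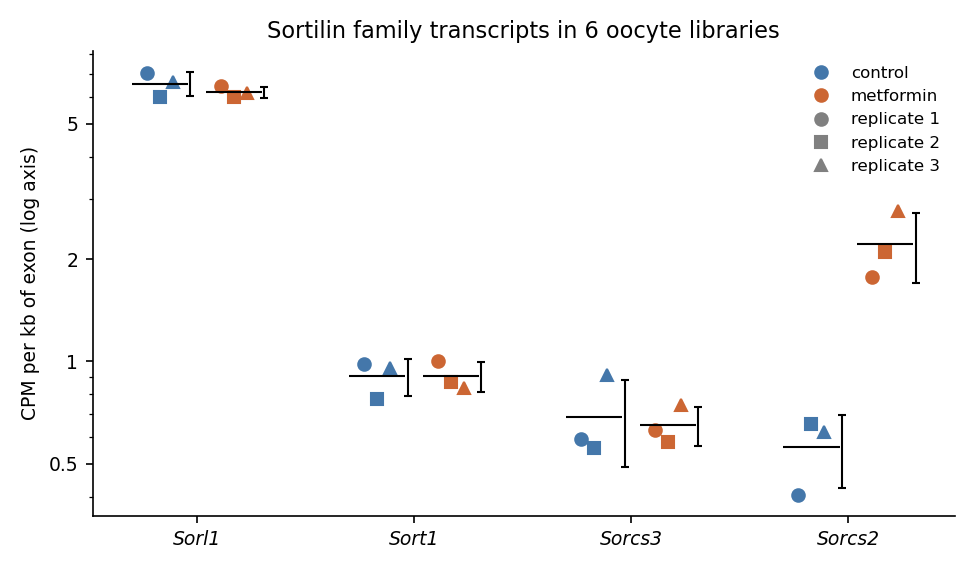
Levels of 4 VPS10 receptor genes, in CPM per kb of annotated exon on a log axis, in each control (blue) and metformin (orange) library; marker shapes give the replicate number, horizontal lines the group mean and bars ± SD (n = 3). Sorcs1 is left out because it had 0 reads in 4 libraries. Sorcs2, whose difference led to the choice of the family, alone separates the groups. It lies at 0.406 to 0.655 in control and 1.77 to 2.78 in metformin libraries.

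Reads of other genes at the Sorcs2 locus did not accompany the difference. The gene spans 380960 bases, and its annotated exons add up to 8802 bases, of which 0 overlap an exon of another gene. Inside its introns, on the opposite strand, lie Psapl1, a prosaposin-like gene (chromosome 5, 36204021 to 36206568), and Mir7689 (36301570 to 36301628), and both had 0 reads in every library. The nearest protein-coding gene on the 3′ side is Afap1, an actin-filament-associated protein gene 13.3 kb away on the opposite strand (chromosome 5, 35893319 to 36003923). Its level was 12.6 ± 0.355 CPM without and 11.9 ± 2.84 CPM with metformin (log2 fold change -0.09, SE 0.214). On the 5′ side, 66.9 kb away, Grpel1, a mitochondrial import co-chaperone gene (36464998 to 36474080), stood at 24.1 ± 2.07 and 24.4 ± 1.09 CPM (log2 fold change 0.02, SE 0.164; SD, n = 3). Neither passed (adjusted p = 1.00, edgeR). The counts are per gene, so which of the 5 annotated Sorcs2 transcripts, 3 of them protein-coding, gave the reads was not measured.

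**Figure D2:**
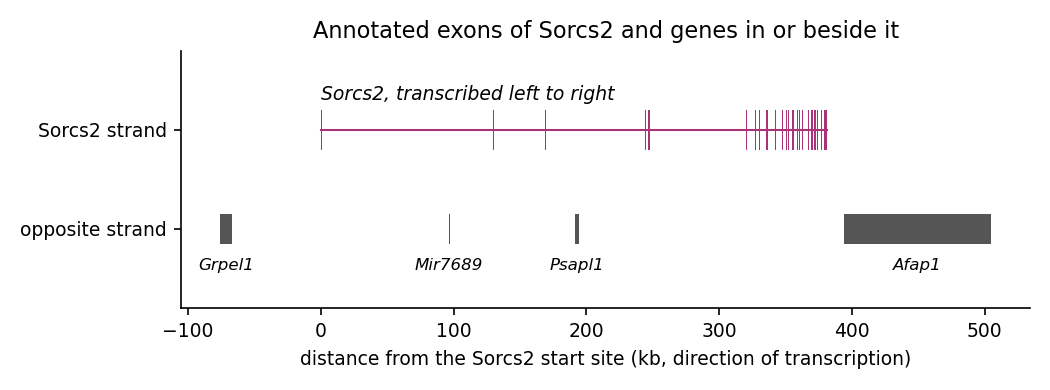
Map of Sorcs2 and the genes in or beside it; the horizontal axis is the distance in kb from the annotated Sorcs2 start site in the direction of transcription, and vertical bars are exons of any annotated transcript (drawn at least 0.6 kb wide). Psapl1 and Mir7689, drawn at least 1 kb wide, sit between exons on the opposite strand and had 0 reads, and Afap1 and Grpel1 lie outside the gene.

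The other SorCS receptors were low in both groups. Sorcs3 (ENSMUSG00000063434, chromosome 19, 48206025 to 48805505, plus strand), whose product resembles SorCS1 most, had 40, 35 and 63 reads in control and 47, 42 and 52 reads in metformin libraries. The metformin values lay within the control range. Its group levels were 4.89 ± 1.41 and 4.64 ± 0.615 CPM (SD, n = 3), and the fitted log2 fold change was -0.08 (SE 0.272, 95% interval -0.67 to 0.52). The sign rested on 1 library, since the value was 0.18 without control replicate 3. Sorcs1 (ENSMUSG00000043531, chromosome 19, 50143299 to 50678646, minus strand) had 0 reads in the control libraries and in metformin replicate 1, and 2 reads each in metformin replicates 2 and 3. It was below the floor of 3 reads in every library and did not pass the filter, so no fold change is given.

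Sort1 (ENSMUSG00000068747, chromosome 3, 108284082 to 108361511, plus strand), the gene of sortilin, had 71, 52 and 70 reads in control and 80, 67 and 62 reads in metformin libraries. The groups overlapped, with metformin replicate 1 above and control replicate 2 below the range of the other group. The levels were 6.86 ± 0.856 and 6.85 ± 0.672 CPM (SD, n = 3). The fitted log2 fold change was -0.0033 (SE 0.221), with a 95% interval of -0.49 to 0.48, and its sign changed when single libraries were left out (-0.103 to 0.058).

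Sorl1 (ENSMUSG00000049313, chromosome 9, 41964720 to 42124297, minus strand), the gene of SorLA, was by far the most abundant member. It had 761, 600 and 728 reads in control and 768, 689 and 681 reads in metformin libraries. The metformin levels, 67.7 to 73.0 CPM, lay almost within the control range of 67.8 to 80.0 CPM. Group levels were 74.4 ± 6.13 and 70.1 ± 2.71 CPM (SD, n = 3), and the log2 fold change was -0.08 (SE 0.141, 95% interval -0.39 to 0.22). With the most reads it was also the member with the narrowest interval. The intervals of Sorl1, Sort1 and Sorcs3 all ended below the lower bound of that of Sorcs2, 1.42. Sorcs2 was chosen by this same comparison, so its interval does not test a difference from the other members.

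**Figure D3:**
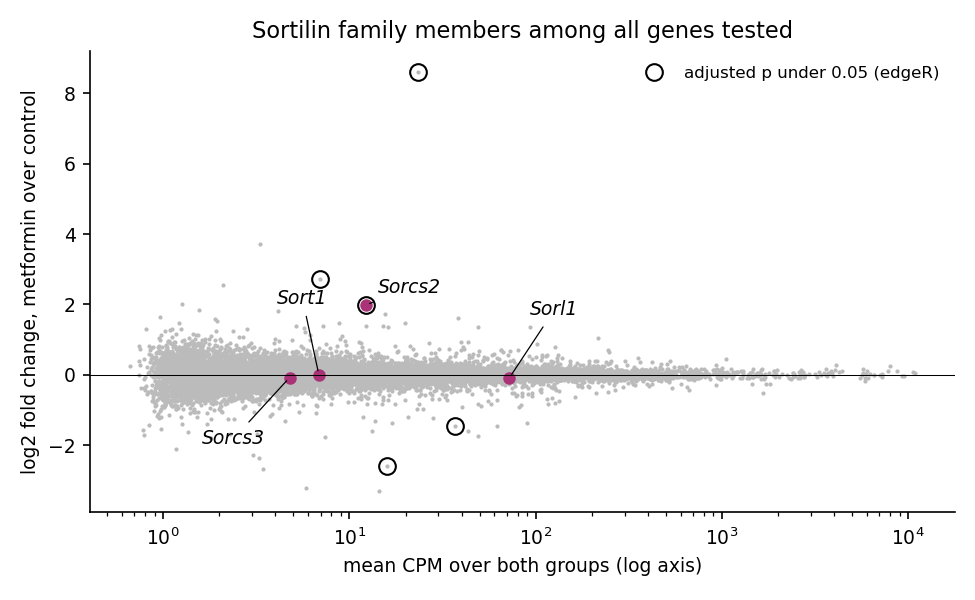
Log2 fold change of metformin over control (vertical axis) against mean CPM over both groups (log horizontal axis) for the 12793 genes tested, 1 grey dot each; purple dots are the 4 tested members and open circles the 5 genes with an adjusted p under 0.05. Sorcs2 lies at 1.98, outside the bulk of genes of its level, while Sorcs3, Sort1 and Sorl1 lie near 0.

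Levels of different genes were compared per kb of annotated exon. In control libraries Sorl1 led at 6.57 ± 0.541 CPM per kb, followed by Sort1 at 0.906 ± 0.113, Sorcs3 at 0.686 ± 0.197 and Sorcs2 at 0.561 ± 0.135 (SD, n = 3). Sorl1 was 6.95 to 7.71 times the level of Sort1 within the control libraries. The ranges of Sort1 and Sorcs3 overlapped, as did those of Sorcs3 and Sorcs2, and Sorcs3 was above Sorcs2 in 2 of the 3 control libraries. In metformin libraries Sorcs2, at 2.22 ± 0.514 CPM per kb, took the second place behind Sorl1 at 6.20 ± 0.239 and ahead of Sort1 at 0.904 ± 0.0888 and Sorcs3 at 0.651 ± 0.0863. It was above Sort1 and Sorcs3 in 3 of 3 of them. The ratio of Sorl1 to Sorcs2 was 9.15 to 17.4 in control and 2.22 to 3.64 in metformin libraries.

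As a share of the family's reads per kb, Sorcs2 made up 4.49%, 8.21% and 6.81% in control replicates 1 to 3. It made up 18.0%, 22.0% and 26.4% in metformin replicates 1 to 3. The summed level of the 4 other members was 86.1 ± 7.42 CPM (SD, n = 3) without and 81.8 ± 3.27 CPM with metformin, so the larger share came with a higher Sorcs2 level and a similar level of the rest. Among all genes with reads in a library, Sorcs2 stood above 32.8% to 40.3% of genes per kb in control and above 58.4% to 65.1% in metformin libraries. Sorl1 stood above 75.3% to 77.6% in all 6, whereas Sorcs3 and Sort1 stayed between 37.6% and 48.8%.

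The order below Sorl1 depends on the gene length used. The deposited FPKM values imply a length of 16.6 kb for Sort1, 2.19 times its annotated exons in GENCODE M21, and of 10.4 kb for Sorcs2 (1.18 times) and 8.31 kb for Sorcs3 (1.17 times). Over 7455 genes that reached 50 counts in all libraries, the median of this ratio was 1.32. With the implied lengths, Sort1 fell below Sorcs3 in all 6 libraries. It was above Sorcs2 in 1 of 3 control libraries, against 3 of 3 with annotated exons. Sort1 then stood at 0.414 CPM per kb in both groups, while Sorcs3 stood at 0.588 and Sorcs2 at 0.475 in control libraries. Sorcs2 remained above Sort1 and Sorcs3 in 3 of 3 metformin libraries.

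The other genes of the pathway were examined in 5 lists of 86 genes that bind, carry, coat or cleave VPS10 receptors or run a parallel sorting route. Of these, 67 passed the filter on low counts, and 0 rose and 0 fell by edgeR. The count was also 0 at an unadjusted p under 0.05 (edgeR) and 0 by DESeq2 and limma-voom. Over all 12793 genes tested, edgeR called 5 and gave 192 an unadjusted p under 0.05, so counts of 0 among 67 carry little weight. Fitted values of the 67 were higher for 28 and lower for 39, with a median log2 fold change of -0.06, beside 0.01 over all genes tested. Groups did not overlap for 5 of the 67, against the background of 5.63% given above. For every tested gene named from these lists the adjusted p was 1.00 (edgeR), and errors are SD over 3 libraries.

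Ligands and co-receptors of the family were mostly scarce. Of 23, only 9 passed the filter, with a median log2 fold change of 0.06. Ngfr, which encodes p75, had 0 reads in every library, and Bdnf had 3 reads in all control and 0 in all metformin libraries. The most abundant were Lpl, a lipoprotein lipase gene, at 136 ± 13.1 CPM without and 137 ± 32.1 CPM with metformin, and Grn, which encodes the sortilin ligand progranulin, at 52.0 ± 8.56 and 47.7 ± 0.897 CPM. The neurotrophin gene Ntf3 stood at 1.81 ± 0.766 and 2.49 ± 0.976 CPM (log2 fold change 0.44, SE 0.406).

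Of 21 genes of retromer, sorting nexins and endosomal recycling, 19 were tested, with 6 fitted higher, 13 lower and a median of -0.07. Of the retromer core, Vps35 stood at 195 ± 12.6 and 199 ± 19.7 CPM and Vps26a at 194 ± 23.4 and 157 ± 25.3 CPM (log2 fold change -0.31, SE 0.156), while Vps29 was lower at 26.8 ± 1.93 and 29.5 ± 4.69 CPM and Vps26b, with 9 and 12 reads per group, did not pass the filter. The sorting nexin Snx2 stood at 229 ± 13.9 and 226 ± 28.0 CPM, the late endosomal GTPase Rab7 at 208 ± 31.9 and 198 ± 31.5 CPM, and Snx17, which recycles surface receptors, at 13.4 ± 2.32 and 11.3 ± 0.111 CPM.

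Of 21 genes of adaptors and clathrin, 18 were tested, with 7 fitted higher, 11 lower and a median of -0.07. Arf1, the GTPase that recruits coats to the Golgi, stood at 342 ± 22.7 and 340 ± 31.9 CPM and the clathrin heavy chain gene Cltc at 172 ± 1.69 and 164 ± 30.4 CPM. The clathrin light chain gene Clta stood at 17.9 ± 3.71 and 14.4 ± 1.05 CPM. The AP-2 subunit gene Ap2m1 stood at 8.80 ± 0.925 and 6.44 ± 1.34 CPM without overlap between groups (log2 fold change -0.45, SE 0.234).

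All 6 genes of the mannose 6-phosphate route and other lysosomal receptors were tested, with 2 fitted higher, 4 lower and a median of -0.17. Igf2r, the large mannose 6-phosphate receptor, stood at 15.1 ± 1.96 and 15.3 ± 7.10 CPM. Gnptg, a subunit of the enzyme that builds the mannose 6-phosphate tag, stood at 14.6 ± 1.26 and 11.7 ± 1.23 CPM without overlap, and Scarb2, the sorting receptor of glucocerebrosidase, at 6.17 ± 2.53 and 4.59 ± 0.539 CPM.

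All 15 genes of proprotein convertases, sheddases and gamma-secretase were tested, with 6 fitted higher, 9 lower and a median of -0.07. The sheddase genes Adam10 and Adam17 stood at 113 ± 14.6 and 116 ± 21.1 CPM and at 87.5 ± 1.52 and 76.5 ± 5.62 CPM, the latter pair without overlap. Bace1, a beta-secretase gene, stood at 8.01 ± 1.43 and 11.5 ± 3.13 CPM without overlap (log2 fold change 0.53, SE 0.248), and the gamma-secretase subunit gene Aph1a at 3.82 ± 1.13 and 2.76 ± 0.0940 CPM.

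**Figure D4:**
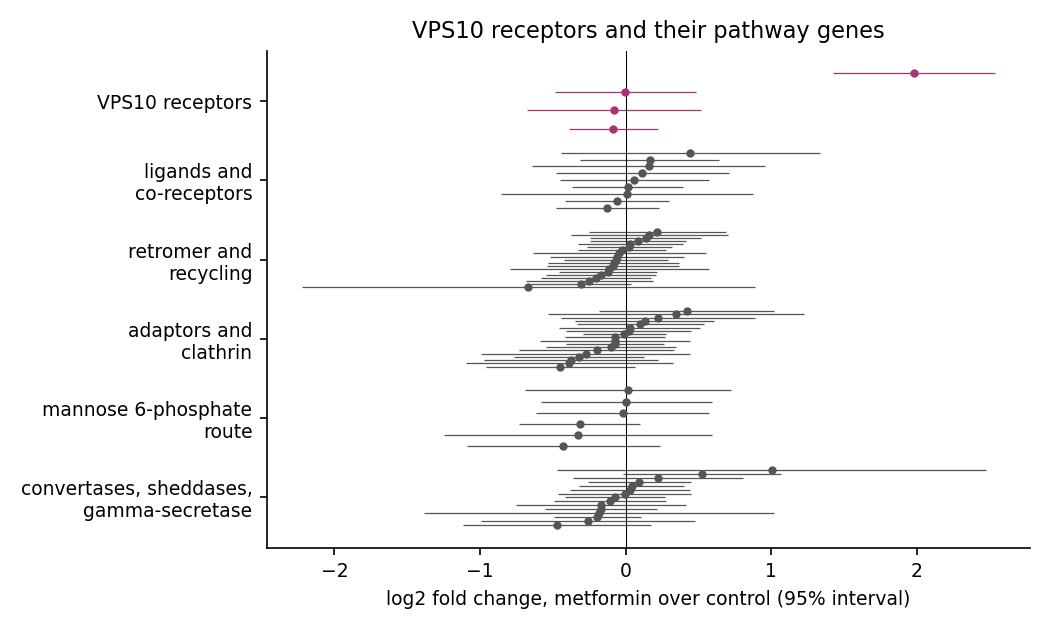
Log2 fold change of metformin over control with its 95% interval (edgeR) for the 4 tested VPS10 receptor genes (purple) and the 67 tested genes of 5 pathway lists (grey), sorted within each list. The interval of Sorcs2, the topmost point, runs from 1.42 to 2.54, and the intervals of the 3 other receptors and of all 67 pathway genes include 0. The family was chosen because Sorcs2 differed in this same comparison.

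Across the 6 libraries, the genes with a proper symbol whose log2 CPM followed that of Sorcs2 most closely were Nmnat1, which encodes a nuclear NAD-synthesising enzyme (Pearson r = 0.985), the glycolytic gene Tpi1 (0.981), the zinc transporter gene Tmem163 (0.980), the maternal RNA-binding protein gene Zar1 (0.978) and the exocyst subunit gene Exoc2 (0.978). They were picked for their coefficients among 12792 genes compared over 6 libraries. These libraries fall into the same groups that Sorcs2 separates, so the likeness is a description. The changes of the 5 genes were smaller than that of Sorcs2. Nmnat1, with 9 to 31 reads per library, ranged from 0.946 to 1.24 CPM in control and from 2.09 to 3.17 CPM in metformin libraries. Tpi1, Tmem163 and Exoc2 were also low, with 17 to 22, 13 to 18 and 12 to 25 reads per library. Zar1, the only abundant one, stood at 699 to 747 and 799 to 845 CPM. None of the 5 passed (adjusted p = 1.00, edgeR), and Tpi1 has pseudogene copies that may make its counts uncertain, which was not tested. Of the members, Sort1 and Sorl1 had r = 0.806 with each other over the same 6 libraries. Sorcs2 had r = 0.03 with Sorcs3, -0.21 with Sort1 and -0.63 with Sorl1. The coefficients of Sorcs2 include the group difference by which it was chosen, and all these values are descriptions over few libraries.

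**Figure D5:**
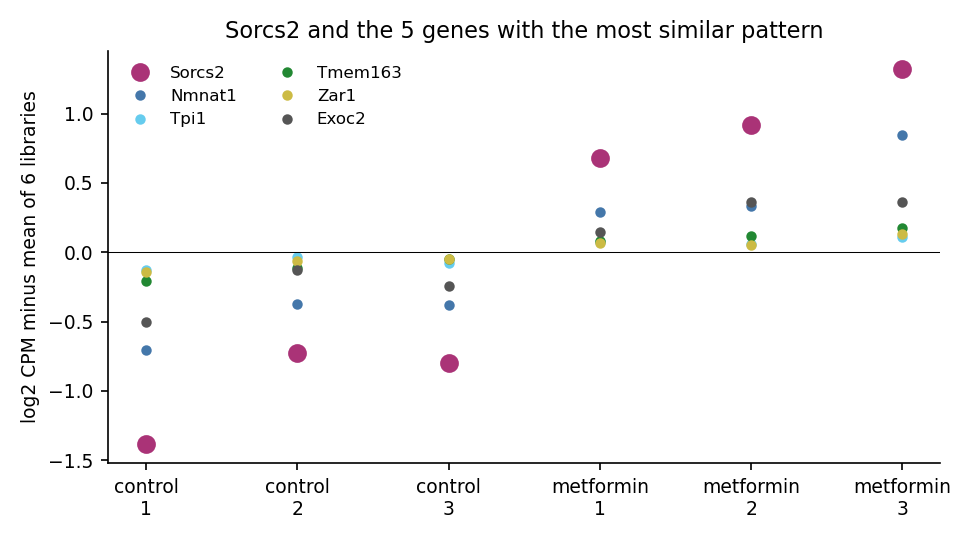
Log2 CPM minus the mean over 6 libraries (vertical axis) in each library (horizontal axis) for Sorcs2 (large purple points) and the 5 genes with a proper symbol and the highest Pearson correlation with it. All 6 genes lie below 0 in the control and above 0 in the metformin libraries, and Sorcs2 has the widest span of these genes.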

How the data were processed

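RNA of 6 mouse oocyte libraries was sequenced after SMART-Seq HT library construction, per the labels' protocols; the kit primes on poly(A) tails and keeps neither strand nor molecular identifiers. CASAVA 1.8, TopHat2 2.0.6 and the mm10 build are named in the submitters' processing notes. Which program counted the reads, and on which annotation, was not given in the sources used here. Per the file headers, the deposited tables of the authors hold raw counts and FPKM values for each gene and library. Counts entered the fits, and deposited FPKM values served only to derive gene lengths. GENCODE M21 (GRCm38) gave symbols for 55141 of 55487 identifiers, positions, exon lengths and transcript sequences. The unnamed identifiers held 0.0583% to 0.0665% of counts.

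All 6 libraries entered a quasi-likelihood fit with the group as its sole factor (edgeR 4.0.16 under R 4.3.3, robust, TMM scaling, filterByExpr at a count of 10), with Benjamini-Hochberg adjustment over 12793 genes and a threshold of 0.05. The SE is the log2 fold change divided by the square root of F. Correlations used log2 CPM with a prior count of 2. Translated coding sequences were aligned with Biopython 1.88. Scripts were tested on simulated counts. Labels do not say whether libraries came from separate animals, so p-values reflect only spread between these samples, possibly technical. PCR reads are not independent molecules, and floors and count intervals (95%) cover counting error only.

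The members and lists were chosen with earlier results of these data known. Named genes were the members, per list the 2 tested genes with the smallest p and the 2 most abundant, the 5 genes most correlated with Sorcs2, genes in or beside Sorcs2, and Gdf9, Zp3 and Mos. Vps35, Vps29, Vps26b, Ngfr, Bdnf and the cell type markers are named beyond this rule, after their values were seen. Alternatives were RLE and upper-quartile scaling, other filters, DESeq2 1.42.0, limma-voom (limma 3.58.1), a non-robust fit, a replicate block and leaving out each library.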

Additional observations from a re-analysis of the deposited data

How the results depend on the processing

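The log2 fold change of Sorcs2 stayed between 1.78 and 2.12 under 14 alternatives. The adjusted p fell short of the threshold under 5 of them. These were limma-voom (1.98), the non-robust fit (1.98) and the removal of each control library (1.79 to 2.10, edgeR adjusted p 0.0600 to 0.0832). Over all 6 removals the value was 1.78 to 2.12 (edgeR adjusted p 0.00469 to 0.0832). The sign for Sort1, at -0.0033, changed in 4 removals, within -0.103 to 0.058, and that for Sorcs3 in 1, within -0.21 to 0.18. That of Sorl1 stayed negative under 14 alternatives. The cause of these shifts was not tested. Of all genes tested, 5 were called, against 9 by DESeq2 and 5 to 12 with 1 library removed. The number was 4 by limma-voom, in the non-robust fit and with the filter at a mean of 10 CPM, and 6 without a filter. Of the pathway genes 0 were called under each alternative. The filter at a mean of 10 CPM removed Sort1 and Sorcs3, which have no value there. The settings for Sorcs3 were added after its counts were seen; the others were planned. With the length implied by FPKM, Sort1 stood at 0.414 CPM per kb in both groups. In metformin libraries, Sorcs3 then stood at 0.558 and Sorl1 at 5.94.

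The replicate numbers were not treated as pairing the libraries: the deviations of same-numbered libraries from their group means correlated at 0.144, 0.044 and 0.200 over genes, although every library correlated best with its own number. With the replicate block 7 genes were called, and Sorcs2 had a log2 fold change of 1.98 (adjusted p = 0.00218, edgeR).

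Differences in Sorcs1, with at most 2 reads per library, were not detectable at this depth. The 35 to 80 reads of Sorcs3 and Sort1 per library limit the precision of their values.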
